A study of Caenorhabditis elegans with 4 samples.

Results

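The autosomal peaks of IMB-1 chromatin immunoprecipitation sequencing (ChIP-seq) that were called in both of 2 replicates are described here. They are peaks of a list deposited for the series as a whole, called the series-level list below. They were chosen by the deposited peak calls: a peak on chromosomes I to V counted as shared if it overlapped a replicate 1 peak and a replicate 2 peak, each by 1 bp or more. This gave 422 shared peaks among 1650 autosomal series-level peaks (25.6%), out of 2008 peaks in the whole list. The 422 shared peaks are set beside the other 1228 autosomal peaks. The ChIP samples were mixed-stage embryos of the wild-type strain N2, a population of males and hermaphrodites, fixed with formaldehyde. The antibody was an affinity-purified rabbit polyclonal raised against a 100-residue stretch of IMB-1. The 2 input DNA samples of the series were not analysed here, so peaks carry no ChIP-to-input value, and a shared peak is a site called in both replicates, not shown to be bound by IMB-1. The labels do not say whether the replicates came from separate cultures.

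IMB-1 is the importin beta of Caenorhabditis elegans. Importin beta carries proteins through nuclear pores, usually by way of the adaptor importin alpha, and releases them in the nucleus when it binds the GTP-bound form of the small GTPase Ran. It also takes part in building the spindle and the nuclear envelope at cell division. C. elegans autosomes have gene-dense centres and repeat-rich arms, and in embryos the arms lie close to the nuclear envelope more often than the centres do. The data hold no gene annotation of the build used, so sites are named by coordinates of WormBase WS220, counted from 1.

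The overlap with the replicates chose the shared peaks, and widths, scores, coverage and spacing come from the same peak calls. Those values are therefore descriptions without a test. Peaks of 1 list are not replicates of a condition, and 2 samples of 1 group allow no test over samples. Exact Clopper-Pearson 95% intervals are given for shares. They cover counting error only and treat peaks as independent, although many stood close together. The depth behind the lists is unknown.

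Some peaks lay close to the 1 bp limit on both sides of it. The 5 shared peaks least covered by either replicate had 11 to 44 bp in common with the replicate that covered them less. The smallest overlap, 11 bp with replicate 1, was at chromosome II 7200474 to 7200654, and the next, 13 bp with replicate 2, was at V 6071295 to 6071658. Then came II at 12339121 (33 bp with replicate 1), I at 3824245 (39 bp with replicate 1) and II at 2716766 (44 bp with replicate 1). Among the 5 peaks just outside the limit, all of which touched replicate 1, the nearest replicate 2 peak lay 10 to 34 bp away. They were at III 415815, II 9633672, II 15000063, III 13585263 and II 14878225. In all, 23 of 422 shared peaks were covered over at most 100 bp by the lesser replicate. Of the 670 other peaks that touched 1 replicate, 13 lay within 100 bp of a peak of the other replicate.

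Shared peaks were wide among the autosomal peaks. Their median width was 523.5 bp (quartiles 359 and 801.5 bp), against 245.5 bp (179 and 380 bp) for the other autosomal peaks. Of the 422 shared peaks, 84 (19.9%, interval 16.2 to 24.0%) were 1000 bp wide or more, against 86 of 1228 others (7.00%, 5.64 to 8.58%) and 10.3% of all autosomal peaks. Peaks under 250 bp made up 26 of the shared peaks (6.16%) and 636 of the others (51.8%). Among the others, peaks touching replicate 1 alone had a median of 351 bp (587 peaks), those touching replicate 2 alone 236 bp (83 peaks) and those touching neither 194 bp (558 peaks).

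**Figure D1:**
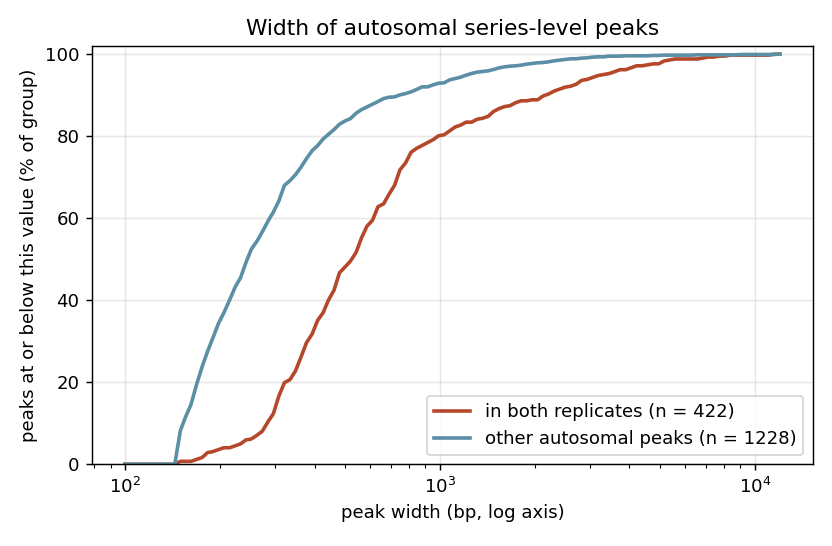
Cumulative share of peaks (vertical axis, % of the group) by peak width in bp (horizontal log axis), for 422 shared peaks and 1228 other autosomal peaks. The curve of the shared peaks lies to the right, with medians of 523.5 bp and 245.5 bp.

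By width class, sharing was lowest for narrow peaks but did not rise at every step. The rule asks for an overlap of 1 bp, so a wider peak has more bases with which to meet it. The part of this in the widths of shared peaks was not tested. Of autosomal peaks under 250 bp, 3.93% (26 of 662) were shared. The share was 31.1% (177 of 569) at 250 to 499 bp, 54.2% (135 of 249) at 500 to 999 bp, 38.1% (37 of 97) at 1000 to 1999 bp and 64.4% (47 of 73) at 2000 bp or more. The drop at 1000 to 1999 bp went with runs of closely spaced peaks, defined as 10 or more peaks of a list with gaps of at most 5 kb. Of the 60 unshared peaks of that class, 47 were in such a run, against 4 of the 37 shared peaks, which leaves 33 shared and 13 other peaks outside runs. Over all widths, 16 shared peaks (3.79%) and 248 others (20.2%) were in a run, against 16.0% of all autosomal peaks. The runs were found in the series-level list (14 runs) and in replicate 1 (17 runs), and replicate 2 had 0.

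The widest shared peaks held a large part of the shared bases. The 47 shared peaks of 2000 bp or more made up 11.1% of the shared peaks and 45.2% of their 388.53 kb. Both replicates together covered at least 90% of 38 of these 47. The widest were on I at 15060179 to 15071415 (11237 bp), at the right end of the chromosome, and on V at 7916790 to 7925053 (8264 bp). On the other autosomes the widest were III at 5353006 to 5358567 (5562 bp), IV at 4416388 to 4421606 (5219 bp) and II at 8288283 to 8292779 (4497 bp). Each of these 5 was covered to more than 90% by both replicates, the lowest value being 97.9% for the peak on III in replicate 2. Among these 5 the score rank did not follow the width: the peak on IV stood at rank 142 of 1650, and the others between rank 7 and rank 29.

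The 5 narrowest shared peaks were 146 to 168 bp wide. The peak at III 7452477 to 7452622 (146 bp) was covered to 39.0% by replicate 1 and 45.9% by replicate 2. The peak at V 8852981 to 8853126 (146 bp) was the edge of a larger site, since the matched replicate peaks were 416 bp wide in replicate 1 and 1015 bp in replicate 2, and the next shared peak began 86 bp away. The peak at IV 17155777 to 17155926 (150 bp) lay wholly inside a 411 bp peak of replicate 2 and was covered to 57.3% by replicate 1. The peak at II 2570673 (167 bp) was covered to 59.9% by replicate 1 and 35.9% by replicate 2, and the peak at III 10796393 (168 bp) to 69.6% and 75.6%. Coverage by the replicates was thus close to even at both peaks on III and uneven at the other 3.

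Scores are the authors' own values as deposited, on a scale that the headers do not name, and were used only as ranks within a list. Of the shared peaks, 299 (70.9%, interval 66.3 to 75.1%) were in the highest-scoring 25% of the autosomal list, against 115 others (9.36%, 7.79 to 11.1%) and 25.1% of all autosomal peaks, ties included. The median score percentile was 85.4 for shared peaks and 38.3 for the others. In the lowest score decile 4 of 175 peaks were shared (2.29%, 0.626 to 5.75%). In the seventh decile 41 of 161 were shared (25.5%), in the eighth 51 of 161 (31.7%), in the ninth 117 of 164 (71.3%) and in the highest 151 of 165 (91.5%, 86.2 to 95.3%). The steepest step, of 51 against 117 shared peaks, was thus between the eighth and the ninth decile.

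**Figure D2:**
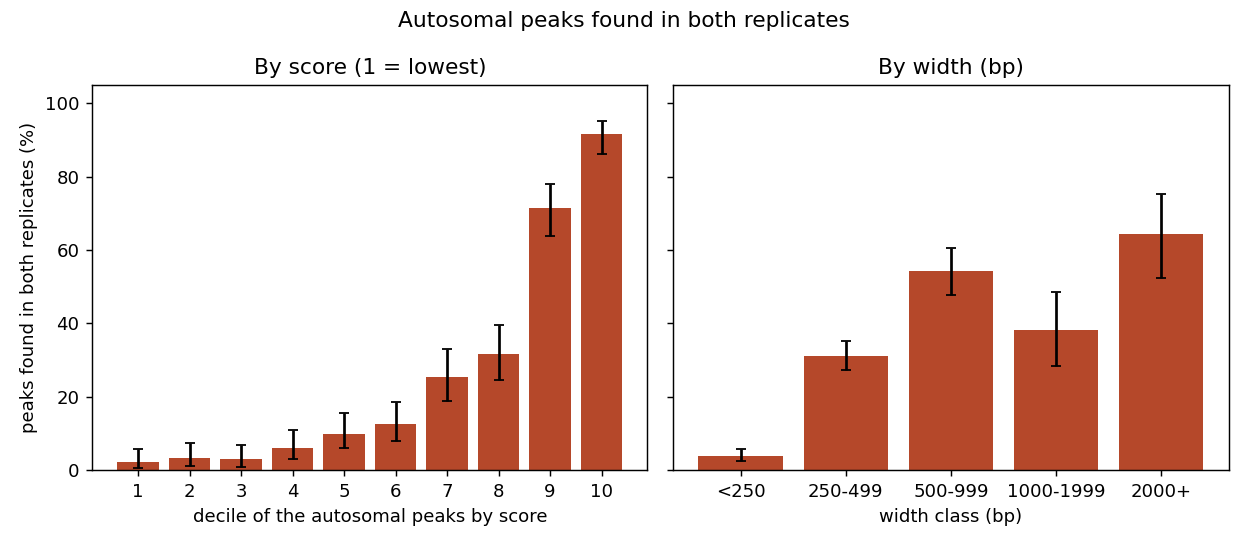
Share of autosomal series-level peaks found in both replicates (vertical axis, %), by score decile (left panel, 1 is the lowest) and by width class in bp (right panel). Bars start at 0 and error bars are exact 95% intervals; the share reaches 91.5% in the highest decile and dips to 38.1% at 1000 to 1999 bp.

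Width and score went together in both groups. The Spearman correlation between series-level score and width was 0.71 over the 422 shared peaks and 0.55 over the 1228 others, a description across peaks that share the same libraries. At like scores the order of widths changed. In the lowest score decile the shared peaks had a median width of 219 bp and the others 188 bp, but in the eighth decile the medians were 438 bp for shared and 589 bp for other peaks, and in the ninth 510 bp and 864 bp. In these higher deciles the unshared peaks had the larger median width. Runs moved with this pattern: 50 of the 110 others in the eighth decile were in runs, and with runs left out the medians there were 423 bp for shared and 356.5 bp for other peaks. In the ninth decile 16 of 47 others were in runs, and without runs the medians were 497.5 bp for shared and 583 bp for other peaks.

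High score alone did not place a peak in both replicates. In the highest decile, 14 peaks were not shared. These peaks were looked at after their values had been seen. Of the 14, 10 touched replicate 1 alone and 4 touched neither replicate, and none touched replicate 2 alone. The widest of them, on I at 10207562 to 10219287 (11726 bp), was wider than every shared peak and touched 3 replicate 1 peaks, while the nearest replicate 2 peak was 13380 bp away. Low scores likewise did not exclude sharing. The shared peak of lowest score, at IV 2916338 to 2916625 (288 bp), stood at rank 1566 of 1650 and was covered to 62.8% by replicate 1 and 46.2% by replicate 2. The next were III at 7452477, I at 14668713, IV at 2694891 and V at 19528561, of which the peak on I was the only one covered to 100% by replicate 2.

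The highest-scoring shared peaks of each autosome were strong in both replicates. On I, the peak at 9382614 to 9383410 (797 bp, rank 1) had score percentiles of 96.5 in replicate 1 and 98.5 in replicate 2, counted over the whole list of each replicate. The second on I was the wide peak at 15060179. On II, the peak at 4129911 to 4130610 (700 bp, rank 5) had percentiles of 95.4 in replicate 1 and 93.5 in replicate 2, and the peak at 8288283 had 98.4 and 98.5. These 2 peaks on II, 700 and 4497 bp wide, differed far more in width than in percentile. On III, the peak at 10224453 to 10225901 (1449 bp, rank 2) had 96.3 in replicate 1 and 89.2 in replicate 2, and the peak at 1299617 to 1303067 (3451 bp, rank 9) had 98.4 and 98.5. On IV, the peak at 2828400 to 2830646 (2247 bp, rank 6) had 98.4 and 98.5, and the peak at 11070801 to 11075939 (5139 bp, rank 8) had 98.4 and 92.1. On V, the neighbouring peaks at 17119881 (6779 bp, rank 3) and 17128104 (4059 bp, rank 4) both had 98.4 and 98.5. The repeated percentiles come from peaks tied at one high score. Of the 41 autosomal replicate 1 peaks at that score, 40 touched a shared peak, and all 33 autosomal replicate 2 peaks at that score did.

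Over all 422 shared peaks, the matched replicate peak, which is the replicate peak with the largest overlap, had a median score percentile of 77.8 in replicate 1 (quartiles 56.0 and 91.0) and of 69.6 in replicate 2 (42.9 and 87.5). Among the other autosomal peaks the median was 45.5 for the 587 that touched replicate 1 and 53.8 for the 83 that touched replicate 2. The percentile was above 75 for 233 shared peaks in replicate 1 (55.2%), for 185 in replicate 2 (43.8%) and for 150 in both. By construction about 25% of the whole list of a replicate is above 75, and about 50% is at most 50. The percentile was at most 50 for 87 shared peaks in replicate 1, for 129 in replicate 2 and for 47 in both. The Spearman correlation between the replicate percentiles was 0.58 over the 422 sites, and the series-level score correlated at 0.89 with replicate 1 and at 0.58 with replicate 2. These correlations describe sites of the same libraries. Whether the series-level list was made from pooled reads of the replicates is not given in the labels or headers.

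**Figure D3:**
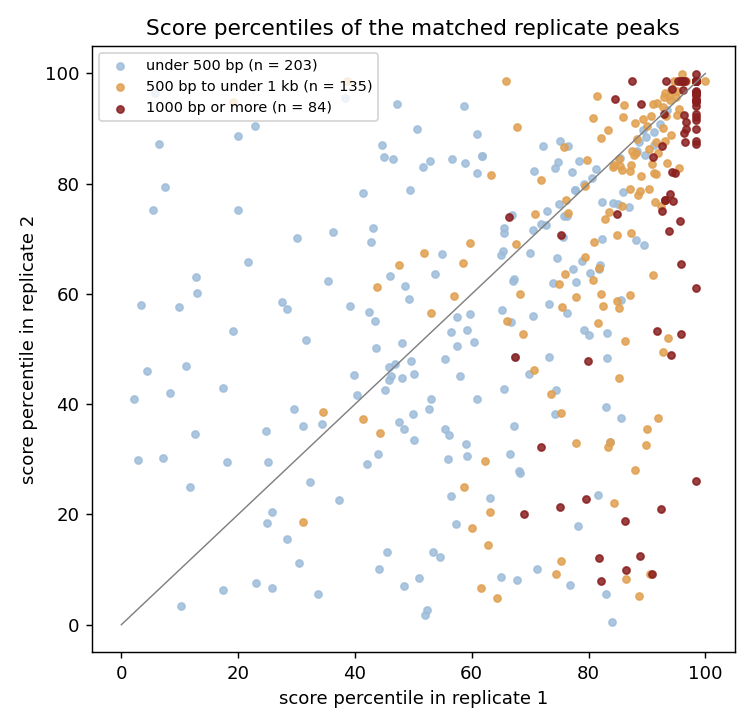
Score percentile of the matched peak in replicate 1 (horizontal axis) and in replicate 2 (vertical axis) for each of the 422 shared peaks, coloured by series-level width; the line marks equal percentiles. Peaks of 1000 bp or more lie mainly at the upper right, with a tail of high replicate 1 and low replicate 2 percentiles.

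The rank agreement differed by width. The Spearman correlation between the replicates was 0.14 for the 26 shared peaks under 250 bp, 0.31 for the 177 of 250 to 499 bp, 0.57 for the 135 of 500 to 999 bp, 0.68 for the 37 of 1000 to 1999 bp and 0.71 for the 47 of 2000 bp or more. It was 0.70 within the highest decile of score and 0.22 within the ninth. Within the eighth it was -0.009 (51 shared peaks), within the seventh 0.032 (41) and within the sixth 0.52 (21). Within the fifth it was -0.14 (17) and within the fourth 0.22 (10). These correlations carry no interval, and several rest on few peaks. At 2000 bp or more the median percentile in replicate 1 was 98.4, the value of the peaks tied at one high score. Within a score decile the range of series-level scores is narrow by construction. The part of ties and of narrow ranges in these values was not tested. Shared peaks under 250 bp had median percentiles of 33.4 in replicate 1 and 46.4 in replicate 2, while those of 500 to 999 bp had 85.5 and 77.9. Across the 46 shared peaks whose percentiles differed by more than 50 points, 34 ranked higher in replicate 1 and 12 in replicate 2. The largest difference was at I 4701264 to 4701750 (487 bp), with a percentile of 5.70 in replicate 1 and 96.4 in replicate 2. Next came I at 1936529 to 1936972 (444 bp), with 84.0 and 0.556, and I at 669592 to 670328 (737 bp), with 88.6 and 5.12. All 3 were on chromosome I and below 1000 bp.

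Coverage by the replicates showed how far the calls agreed on the extent of a site. The median shared peak was covered to 81.4% by replicate 1, to 78.5% by replicate 2 and to 65.6% by both at once. Bases covered by both made up 90% or more of 83 shared peaks and 50% or more of 289. They made up under 10% of 20 shared peaks, and in 12 no base was covered by both, so that each replicate covered another stretch of the peak. Median coverage by both was 55.4% under 250 bp, 58.0% at 250 to 499 bp, 73.4% at 500 to 999 bp, 89.6% at 1000 to 1999 bp and 96.5% at 2000 bp or more. The 16 shared peaks in runs were covered unevenly: their median coverage was 86.2% by replicate 1 and 19.0% by replicate 2, against 81.3% and 78.8% for the 406 outside runs. Among the 47 shared peaks of 2000 bp or more, 6 were covered by both over less than 50% of their length, and 5 of these 6 were in runs.

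Most shared peaks touched a single peak of each replicate. Exactly 1 peak of each replicate touched 328 of the 422 (77.7%). The reverse was not required: 6 matched replicate 1 peaks and 7 matched replicate 2 peaks each served more than 1 shared peak. More than 1 peak of replicate 1 touched 75 shared peaks, more than 1 peak of replicate 2 touched 35, and more than 1 of both touched 16. The share touching exactly 1 peak of each fell with width, being 96.2% under 250 bp and 48.9% at 2000 bp or more. The peak at III 13588982 to 13592056 (3075 bp) touched the most replicate peaks, with 8 of replicate 1 and 1 of replicate 2. Replicate 1 covered 81.4% of it and replicate 2 covered 3.80%. The peak at I 4540315 to 4547818 (7504 bp) touched 3 and 5, and the peak at II 4641173 to 4645077 (3905 bp) touched 4 and 4, with both replicates covering 96.0% and 86.3% of their lengths.

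At most sites the series-level peak began before the replicate peaks, and its end differed less. The 328 sites used here touched 1 peak of each replicate, and a few of them had a replicate peak in common with a neighbour. Over these sites, replicate 1 peaks began a median of 60.5 bp after the series-level start (quartiles 8 and 86.25 bp). They ended 18 bp before the series-level end (quartiles -46 and 26 bp, replicate minus series-level). Replicate 2 peaks began 67 bp after the series-level start and ended 22 bp before the series-level end (-57.25 and 37.25 bp). The start came later in 77.4% of sites in replicate 1 and 79.0% in replicate 2, and the end came earlier in 64.0% and 61.3%. The 25 such sites under 250 bp differed from this: replicate 1 peaks began a median of 7 bp before the series-level start, with a later start in 48% of sites, and replicate 2 peaks ended 55 bp beyond the series-level end, with an earlier end in 28%. Between the replicates themselves the median difference, replicate 2 minus replicate 1, was 0 bp at the start and -3 bp at the end, with quartiles of -49.25 and 41 bp at the start and -48.25 and 43.25 bp at the end. Per the file headers, the series-level list came from another version of the peak caller, and its part in this offset was not tested.

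Seen from the replicates, nearly all autosomal sites called in both reached the series-level list. Of 479 autosomal replicate 1 peaks that touched replicate 2, 458 (95.6%) touched a shared peak, and of 469 autosomal replicate 2 peaks that touched replicate 1, 448 (95.5%) did. In each replicate 20 such peaks touched no autosomal series-level peak. They were narrow, with median widths of 151 bp in replicate 1 and 263.5 bp in replicate 2, against 350.5 and 405 bp for those touching a shared peak. Of the highest-scoring 25% of autosomal peaks, 261 of 366 in replicate 1 (71.3%) and 200 of 316 in replicate 2 (63.3%) touched a shared peak, against 511 of all 1464 (34.9%) and 466 of all 1265 autosomal peaks (36.8%) of these replicates.

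Shared peaks were found on all 5 autosomes. There were 110 on IV, 99 on V, 72 on I, 71 on III and 70 on II. Their density was 6.29 per Mb on IV, 5.15 on III, 4.78 on I, 4.73 on V and 4.58 on II, against 5.11 over the autosomes, with lengths taken as the largest peak end of any list. The share of autosomal peaks that were shared was 26.9% on IV (interval 22.7 to 31.5%), 27.3% on V (22.8 to 32.2%), 25.9% on I (20.9 to 31.5%), 24.8% on II (19.9 to 30.3%) and 22.3% on III (17.9 to 27.3%). These intervals overlap one another. The median width of shared peaks was largest on V, at 584 bp, and 16 of its 99 were 2000 bp or more. The medians of the other autosomes were 490.5 to 522.5 bp, with 4 to 9 such wide peaks each. These medians carry no interval. In runs of closely spaced peaks stood 9 of the shared peaks on V, against 0 to 6 on each other autosome.

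Shared peaks lay in the arms in a share near that of all autosomal peaks and close to the arms' part of the length. With each autosome divided into 3 parts of equal length, the outer 2 of these 3 parts held 301 of 422 shared peaks (71.3%, interval 66.8 to 75.6%) and 910 of 1228 others (74.1%, 71.6 to 76.5%), against 73.4% of all autosomal peaks. With runs left out, the shares were 70.9% (66.3 to 75.3%) of 406 shared and 79.3% (76.6 to 81.8%) of 980 other peaks. With outer parts of 50% of the length in place of these, 52.8% (48.0 to 57.7%) of shared peaks were in them. No test of these differences was made. Of the higher-scoring 50% of shared peaks 67.3% (60.5 to 73.6%) were in the outer parts, and of the lower-scoring 50% 75.4% (69.0 to 81.0%), with intervals that overlap. The other peaks had the same order, with 70.2% (66.4 to 73.8%) of their higher-scoring 50% and 78.0% (74.5 to 81.2%) of their lower-scoring 50%. For shared peaks, the split by replicate score gave 71.6% and 71.1% in replicate 1, and 71.1% and 71.6% in replicate 2. By width, 84.6% of shared peaks under 250 bp were in the outer parts, 72.9% at 250 to 499 bp, 63.7% at 500 to 999 bp, 81.1% at 1000 to 1999 bp and 72.3% at 2000 bp or more. For the other peaks these shares were, in the same order of width, 77.7%, 74.0%, 64.9%, 61.7% and 57.7%.

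The autosomes differed in where the shared peaks stood. On II, 43 of 70 shared peaks (61.4%, 49.0 to 72.8%) were in the outer parts, against 174 of 212 others (82.1%, 76.2 to 87.0%), and without runs the shares were 60.9% and 82.1%. On IV the order was the other way, with 77.3% (68.3 to 84.7%) of shared and 65.2% (59.5 to 70.6%) of other peaks. On that chromosome 57 other peaks and 0 shared peaks were in runs, and without them the share was 77.3% of shared and 80.6% of other peaks, so the order on IV turned with the runs. On III the shares were 66.2% of shared and 66.0% of other peaks, and 67.7% and 77.9% without runs. On V they were 69.7% and 79.2%, and on I 79.2% and 82.0%.

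**Figure D4:**
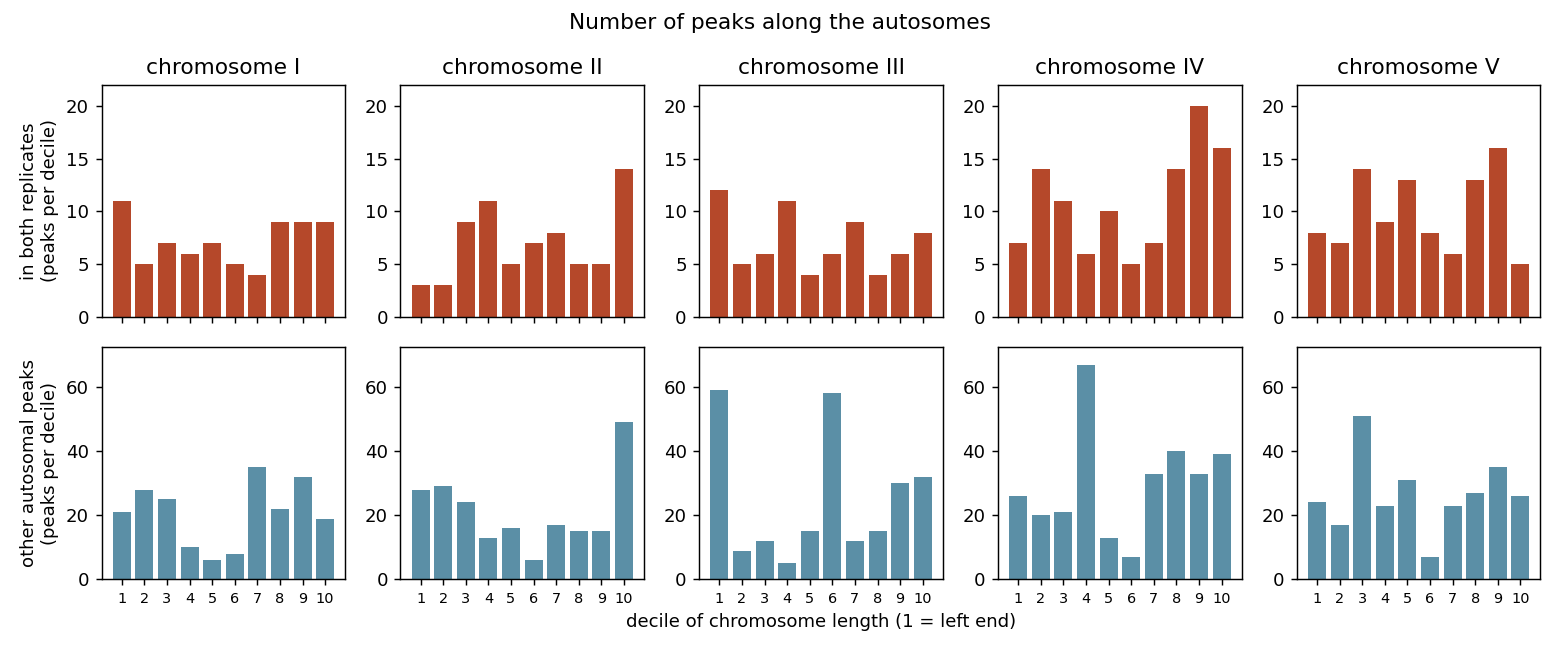
Number of peaks (vertical axes) in each decile of chromosome length (horizontal axis, 1 is the left end) on the 5 autosomes, for shared peaks (upper row) and other autosomal peaks (lower row, other scale). Shared peaks peak at 20 in the ninth decile of IV, and the tall bars of other peaks in the sixth decile of III (58) and the fourth of IV (67) stand under 6 shared peaks each.

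Along the chromosomes, the ninth decile of IV had the most shared peaks, with 20 beside 33 others (37.7% shared), and its last decile had 16 beside 39 others (29.1%), against 25.6% over the autosomes. On II the first 2 deciles had 3 shared peaks each, beside 28 and 29 others (9.68% and 9.38%). The last decile of II had 14 beside 49 others (22.2%), a share below that of all autosomal peaks. The largest share of peaks that were shared was in the fourth decile of III (11 of 16, 68.8%). The lowest was in the fourth decile of IV (6 shared and 67 others, 8.22%). In the sixth decile of III 6 peaks were shared and 58 were not. These highest and lowest values were picked from all deciles of the 5 autosomes and carry no interval. Runs held 57 other and 0 shared peaks on IV, and 107 other and 6 shared peaks on III. Their part in single deciles was not tested.

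Every autosome began with a shared peak. The first series-level peak started at base 1 on all 5 and was shared in each case. These peaks were 494 bp wide on I, 443 bp on II, 220 bp on III, 238 bp on IV and 297 bp on V, with percentiles of 74.9 to 89.7 in replicate 1 and 62.1 to 85.2 in replicate 2. Each was covered to 85.3% or more by both replicates taken singly. The right ends differed. The last series-level peak of each of the 5 autosomes touched neither replicate, and lay 288 to 92315 bp from the nearest replicate 1 peak and 288 to 50347 bp from the nearest replicate 2 peak. On I, III, IV and V these last peaks were the 4 peaks of the highest score decile that touched neither replicate. The peaks at chromosome ends were singled out after their values had been seen.

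Fewer shared than other peaks had any series-level peak close by, and more of them had a shared peak close by. Another series-level peak lay within 5 kb of 195 of the 422 shared peaks (46.2%, interval 41.4 to 51.1%), against 834 of the 1228 others (67.9%, 65.2 to 70.5%) and 62.4% of all autosomal peaks. The median gap to the nearest other series-level peak was 6883 bp for shared and 625 bp for other peaks. Without runs the shares were 44.1% (39.2 to 49.1%) of shared and 59.8% (56.6 to 62.9%) of other peaks. Within 1 kb the shares were 34.1% of shared and 55.2% of other peaks. Counting only shared peaks as neighbours turned the order: a shared peak lay within 5 kb of 119 of 422 shared peaks (28.2%, 24.0 to 32.8%) and of 204 of 1228 others (16.6%, 14.6 to 18.8%). Within 1 kb these shares were 19.7% of shared and 8.63% of other peaks, and within 20 kb 38.9% and 30.8%. Some of these neighbours follow from the rule, since a replicate peak that spans adjacent series-level peaks touches each of them. Matched peaks used by more than 1 shared peak numbered 6 in replicate 1 and 7 in replicate 2. Their part in the order was not tested.

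**Figure D5:**
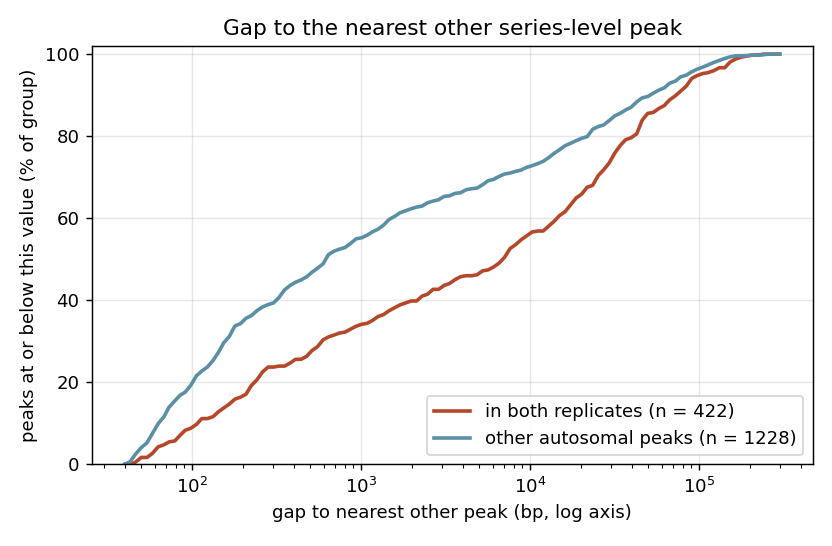
Cumulative share of peaks (vertical axis, % of the group) by the gap in bp to the nearest other series-level peak (horizontal log axis), for 422 shared peaks and 1228 other autosomal peaks. The medians are 6883 bp for shared and 625 bp for other peaks.

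Joined over gaps of at most 5 kb, the 422 shared peaks formed 354 groups, of which 303 held 1 shared peak, 41 held 2, 4 held 3, 5 held 4 and 1 held 5. The median gap between consecutive shared peaks was 126 kb (quartiles 24.5 and 286 kb). The autosomal length per shared peak was 196 kb, which is a mean and cannot be set directly against a median gap. The 119 shared peaks with another within 5 kb had a median width of 543 bp and a median score percentile of 79.7, against 513 bp and 86.7 for the 303 without.

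The groups with the most members were of different kinds. The group of 5, at IV 15077500 to 15081638 (4139 bp), was of modest rank: its peaks were 283 to 703 bp wide, ranked 454 to 728, and had percentiles of 10.2 to 62.2 in replicate 1 and 3.30 to 53.3 in replicate 2. The group of 4 at IV 14477867 to 14481044 (3178 bp) held both strong and weak peaks, with ranks of 55 to 819. The group of 4 at II 13819904 to 13827396 (7493 bp) was narrower in the series-level list (202 to 376 bp) and in replicate 1 (224 to 525 bp) than in replicate 2. There the 4 matched peaks were 1104, 1122, 1208 and 1211 bp wide and covered each series-level peak completely. Their percentiles were 6.45 to 61.0 in replicate 1 and 81.9 to 87.2 in replicate 2, so the replicates did not overlap in rank at this site.

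Other groups of 4 were wide in both replicates or in 1. At V 17115333 to 17132162 (16830 bp) all 4 shared peaks ranked between 3 and 19, with percentiles of at least 95.6 in replicate 1 and 82.8 in replicate 2. At IV 8572594 to 8581064 (8471 bp) the 4 peaks had percentiles of 69.0 to 84.9 in replicate 1 and 20.1 to 74.5 in replicate 2. At V 17384069 to 17394585 (10517 bp), inside a run, 14 replicate 1 peaks and 4 replicate 2 peaks were called, and the median coverage of the 4 shared peaks was 94.6% by replicate 1 and 12.8% by replicate 2.

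Long stretches had no shared peak although both replicates had peaks there. The longest was on II from 632964 to 2348044 (1715 kb), with 38 series-level, 24 replicate 1 and 24 replicate 2 peaks. On V the last 1281 kb, from 19643451, had 10 series-level, 10 replicate 1 and 7 replicate 2 peaks. The next were IV from 9764961 to 10943380 (1178 kb), I from 8259828 to 9382613 (1123 kb) and II from 5782369 to 6853030 (1071 kb), with 6 or 7 series-level peaks each. The stretch on I ended at the highest-scoring shared peak of all, whose nearest other shared peak was 747078 bp away.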

How the data were processed

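Peak lists of 2 ChIP replicates and of the whole series were used. Per the submitters' processing notes, alignment was with BWA and the build ce10. Per the file headers and source columns, MACS gave the replicate peaks and MACS v2 the series-level peaks, in WormBase WS220 coordinates. Calling thresholds and the control are not given in the labels or headers. The score of each peak is the authors' deposited value, of unnamed scale, and was used only for ranks. No genome of this build was used, so no sequence or gene is reported.

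Overlaps, coverage, gaps and groups were computed from starts and ends with scipy 1.17.1, pandas 2.3.3 and numpy 2.4.6 under Python 3.11.15, and the functions were tested on simulated lists. Each shared peak was matched in a replicate to the peak with the largest overlap. Percentiles are over all autosomal peaks of the series-level list and over the whole list of a replicate. Position was taken at the peak middle.

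The shared peaks, measures and alternatives were chosen with earlier results of these data known. Peaks named are, per autosome, the 2 of highest score and the widest, the 5 narrowest, the 5 of lowest score, those nearest the overlap limit, the 3 largest groups (those tied in size were included), the 3 touching most replicate peaks, the 3 with the largest rank difference, and the 5 longest stretches without a shared peak.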

Additional observations from a re-analysis of the deposited data

How the results depend on the processing

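Of 64 other settings over 8 results, 31 stayed within the 95% interval of the reported value, or within 1.5 times the count, and 33 moved. The share in the outer parts (71.3%) moved only with outer parts of 50% of the length, to 52.8%. Covering at least 50% of the peak by each replicate kept 305 peaks and gave a median width of 565 bp, coverage by both of 77.0%, 79.7% in the highest-scoring 25% and 21.6% with another shared peak within 5 kb. A reciprocal overlap of 50% gave 265 peaks, 574 bp, 74.9%, 82.6%, 18.9% and, with any series-level peak within 5 kb, 40.4%. Middles within 200 bp gave 14.4% of peaks at 1 kb or wider and 21.5% near another shared peak. The higher-scoring 50% of each list gave 249 peaks, 632 bp, 76.9% coverage by both, 27.7% at 1 kb or wider, 16.9% near another shared peak and 27.7% near any. Merging peaks within 5 kb gave 784.5 bp and 45.3% at 1 kb or wider. A distance of 1 kb gave 19.7% and 34.1%, and 20 kb gave 38.9% and 65.9%. The highest-scoring 10% held 35.8%. Without replicate 1 or without replicate 2, that is with the other alone required, the counts were 505 and 1009, the median widths 448 and 420 bp, the shares at 1 kb or wider 16.6 and 16.8%, in the outer parts 70.3 and 71.0%, in the highest-scoring 25% 59.6 and 40.1%, near another such peak 32.3 and 56.5%, and near any peak 45.7 and 65.0%. Leaving out runs moved none of the 8. It was added afterwards for single chromosomes, where it moved the outer share of other peaks on III to 77.9% and on IV to 80.6%. Stricter overlap, close middles, higher scores and merging left fewer peaks, and requiring 1 replicate alone gave more. Other outer parts, distances and the highest-scoring 10% kept the same 422 peaks but changed the measure itself, so those values move by definition. Requiring an overlap of 50% selects on coverage, and merging joins widths. Beyond that the cause of the moves was not tested. No paired analysis was possible because no result comes from a test between groups, and the lists used are of ChIP samples alone. Depth is unknown, so a site missing from a list cannot be read as absent.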
